A study of Mus musculus with 24 samples.

Results

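The change in the hepatic effect of losing Abcb4 between 6 and 9 weeks of age was measured on 12 of the 24 arrays of the series, the 6 titled 9 weeks and the 6 titled 6 weeks. Liver RNA of male abcb4 (-/-) mice of the line FVB.129P2-Abcb4tm1Bor/J, which lack the gene in every cell, shared each spotted cDNA array with liver RNA of male FVB/NJ abcb4 (+/+) mice of the same week. No other treatment is named, and the arrays of 3 and 20 weeks entered the fit only through the estimate of spread and are quoted as context. Knockout RNA was in Cy5 on 3 arrays and in Cy3 on 3 arrays of each week. The series gives 5 mice per genotype and week plus a dye swap, so at least 1 array of each week repeats mice and p-values rest partly on technical spread. Ages follow the sample titles; 1 label dates them from weaning instead, and the source name reads 3 weeks throughout.

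Abcb4, known in mice also as Mdr2, is the canalicular floppase that brings phosphatidylcholine into bile. Bile without phospholipid is toxic to the cholangiocytes that line the ducts, and mice without the gene develop a sclerosing cholangitis with ductular proliferation, inflammation, periportal fibrosis and, late in life, liver tumours. The weeks compared here also span the time in which male mice reach adulthood and the liver takes on its sex-dependent expression of steroid, drug and fatty acid metabolising enzymes.

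Each value is a log2 ratio of knockout over wild type, turned to 1 direction and centred on the median of its array. The difference reported is the mean ratio at 9 weeks minus the mean ratio at 6 weeks (n = 6 arrays each), so a positive difference is a higher knockout effect at 9 weeks, whatever the sign at either week. The base of the logarithm is not given in the labels and was taken as 2. The direction rests on the assumption that Abcb4 is lower in the knockout; if it is wrong, every sign given here turns round. The layout that joins values to probes was found from copies of the same accession and carries every gene name. Since the table holds ratios alone, signal over background is not known, a fall in the cells of 1 type cannot be told apart from less RNA per cell, and the labelled tissue could not be checked from the levels of hepatocyte genes. No hybridisation date is given in the labels, so week and any batch of hybridisation cannot be told apart. The number of arrays limits the precision.

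Abcb4 itself ranged from -2.22 to -0.64 at 9 weeks (median -1.37), against -2.22 to -1.17 at 6 weeks (median -1.51). The ranges overlap, and the difference of 0.15 ± 0.24 (SE; 95% interval -0.35 to 0.64) was not called, with an adjusted p of 0.98 in limma's moderated test.

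Most of the knockout effect was shared by the 2 ages. Among 16504 named genes, 3831 passed against 0 at 9 weeks and 3765 at 6 weeks, where 21.3% and 20.9% of all 20861 items tested were called. In the same direction at both weeks were 2339 genes, which is 61.1% of those called at 9 weeks and 62.1% of those called at 6 weeks. Across all named genes the weekly means had a Pearson r of 0.85, a description over genes that share arrays. A single call at 1 week is no evidence of a difference between weeks, and the test of the difference itself gave far fewer calls. At an adjusted p of 0.05 (Benjamini-Hochberg over all items, limma), 16 items differed between 9 and 6 weeks, 0.0767% of those tested, 8 higher and 8 lower at 9 weeks (0.0383% each). At an unadjusted p of 0.05 the count was 1607, or 7.70%.

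The 16 items were 15 named genes, 8 higher and 7 lower, and 1 feature without a gene. For 10 of the 16 the arrays of the 2 weeks did not overlap, and 83 of all items (0.398%) had arrays that did not. The 16 were called on the same arrays, so their larger share follows from the selection and is no added evidence. Of the 15 genes, 9 were past the threshold against 0 at 6 weeks and not at 9 weeks, 1 was past it at 9 weeks and not at 6 weeks, 3 were past it in the same direction at both weeks and 2 were past it in opposite directions. Each of the 15 rested on 1 feature. Of 5253 genes called at either week, 4064 (77.4%) had a 95% interval of the difference that lay within 0.5 of 0, and 5075 (96.6%) had one within 1. The calls were few and depended on single arrays: leaving out replicate 1, 2, 3 or 5 of 9 weeks gave 3, 6, 2 and 2 items, and leaving out replicate 2, 3, 4, 5 or 6 of 6 weeks gave 38, 3, 3, 10 and 5. Hpgd and Elovl3 stayed called in all 12 of these fits. Of 13 other alternatives, Hpgd was called in 11 and Elovl3 in 7, and with the closest pair of arrays of each week averaged, 1 of the 16 calls was left.

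A few arrays stood apart. At 6 weeks, replicates 1 and 2 both lay outside the range of replicates 3 to 6 for 30 of 73 genes looked at singly. They were below it for 16 and above it for 14. The 30 include C6, Rdh16f2, Rdh9, Tspan1 and Fam13a among called genes and Hsd3b5, Cyp7b1, Gstp1, Cyp2a4, Cyp2b9, Vldlr and G6pc among the others. Most of the 73 are named here and were picked for a small p in this contrast. The share over all items was not counted, so how unusual 30 of 73 is remains unknown. Without both arrays, 70 items were called, 15 of the 16 among them. These 2 arrays were chosen after the values were seen, so this larger count supports nothing. At 9 weeks, replicate 2 had the lowest array weight (0.31) and the widest spread of ratios (SD 0.435).

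**Figure D1:**
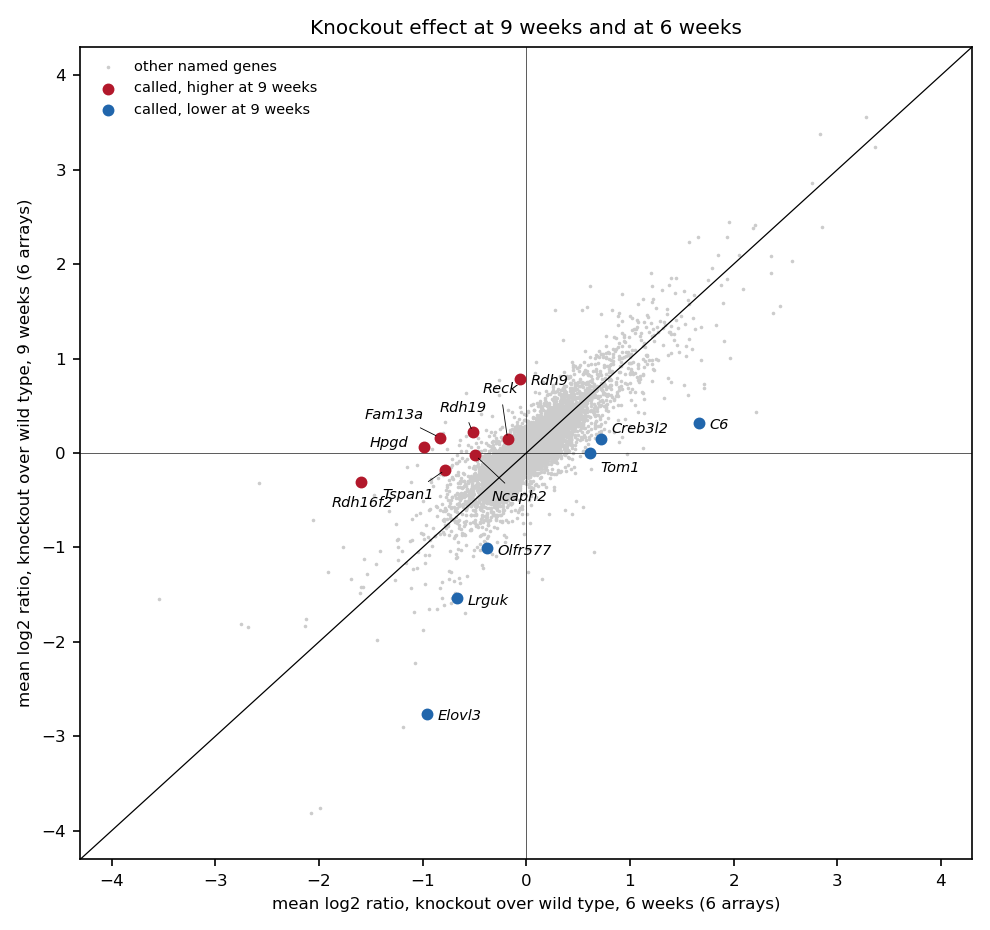
Mean log2 ratio of knockout over wild type at 9 weeks (vertical axis) against 6 weeks (horizontal axis), 1 point per named gene, with the diagonal of equal effect. Grey points lie along the diagonal (r of 0.85); the 8 called genes that were higher at 9 weeks (red) lie above it, and 6 of the 7 that were lower (blue) lie below it, 1 clone-named gene being drawn in grey.

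Hpgd, on chromosome 8, had the smallest p. It encodes the dehydrogenase that inactivates prostaglandins. Its log2 ratio ranged from -0.23 to 0.30 at 9 weeks (median 0.12), against -1.22 to -0.62 at 6 weeks (median -1.08), and the 2 ranges did not meet. All 6 arrays of 6 weeks lay below 0, while 4 of the 6 arrays of 9 weeks lay above it. The difference was 1.05 ± 0.15 (SE; 95% interval 0.75 to 1.35, adjusted p = 0.00653, limma). It was 1.15 among arrays with knockout RNA in Cy5 and 0.95 among those with it in Cy3. Its mean was -0.42 ± 0.31 at 3 weeks and 0.29 ± 0.45 at 20 weeks (SD), so that the lowest of the 4 weekly means was that of 6 weeks.

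Elovl3, on chromosome 19, makes very long chain fatty acids and is more abundant in male than in female mouse liver. Its log2 ratio ranged from -3.74 to -2.14 at 9 weeks (median -2.69), against -1.77 to -0.38 at 6 weeks (median -0.78). Every array of both weeks lay below 0, and the weeks did not overlap. The difference of -1.80 ± 0.27 was the largest among called genes (95% interval -2.36 to -1.24, adjusted p = 0.0107, limma), and it was -2.02 and -1.58 in the Cy5 and Cy3 orientations. The mean was -0.26 in the youngest mice (3 weeks), -0.96 at 6 weeks, -2.76 at 9 weeks and -1.56 in the oldest mice (20 weeks).

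Of the called genes, 3 belong to 1 group of neighbours on mouse chromosome 10 that encode short-chain dehydrogenases named for retinol, enzymes of which several also act on steroids. In RefSeq's order on GRCm38.p6 the group runs Rdh1, Rdh9, Rdh16, the pseudogene Rdh18-ps, Rdh19, Rdh16f2, Rdh7 and Sdr9c7. Neighbours were looked up after the 3 calls had been seen. The promoter windows of Rdh9, Rdh16 and Rdh16f2 (250 bases before to 50 after the start, RefSeq, GRCm38.p6, all on the + strand) are shown because they share a run of 17 bases, given in capitals. Their positions are chr10:127776155-127776454, chr10:127800903-127801202 and chr10:127866226-127866525. In Rdh9 the run covers bases 27 to 43 after the start, and in Rdh16f2 bases 20 to 36 after it. In Rdh16 the run spans the start, so in none of the 3 does it lie wholly upstream.
Rdh9: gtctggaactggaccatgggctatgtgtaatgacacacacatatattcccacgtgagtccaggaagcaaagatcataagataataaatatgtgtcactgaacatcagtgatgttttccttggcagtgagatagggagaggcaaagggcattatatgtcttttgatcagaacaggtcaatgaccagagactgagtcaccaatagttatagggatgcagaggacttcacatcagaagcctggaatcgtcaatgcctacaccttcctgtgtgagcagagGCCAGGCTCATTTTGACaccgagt
Rdh16: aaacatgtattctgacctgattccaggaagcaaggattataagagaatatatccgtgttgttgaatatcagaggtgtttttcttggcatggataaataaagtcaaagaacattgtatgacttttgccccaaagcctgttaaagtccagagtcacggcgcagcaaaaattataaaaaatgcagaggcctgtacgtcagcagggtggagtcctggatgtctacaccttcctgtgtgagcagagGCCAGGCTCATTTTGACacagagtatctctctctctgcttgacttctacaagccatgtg
Rdh16f2: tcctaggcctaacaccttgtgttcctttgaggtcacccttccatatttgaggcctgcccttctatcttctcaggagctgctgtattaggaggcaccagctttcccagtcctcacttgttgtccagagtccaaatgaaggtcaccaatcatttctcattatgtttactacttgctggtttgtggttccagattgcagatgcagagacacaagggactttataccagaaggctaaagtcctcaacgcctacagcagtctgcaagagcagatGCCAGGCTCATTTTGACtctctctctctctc
The run was found in 3 of 32851 promoter windows of the mouse table (0.00913%, either strand), which are these 3, and not in the windows of Rdh1, Rdh7 or Sdr9c7. The window of Rdh19 was not analysed here. Rdh9 and Rdh16 shared a longer stretch of 43 bases that contains it and were identical at 61.4% of aligned positions, against 53.6% for Rdh9 with Rdh16f2 and 46.9% for Rdh16 with Rdh16f2. Other pairs of the group reached 54.5% (Rdh1 with Rdh7), and Rdh16f2 shared a run of 17 bases with 1 of the 2 Rdh7 windows too. The run was picked from these sequences and is a description. The probe sequences are not analysed here, and whether probes of this family bind transcripts of more than 1 member was not tested, so the values of single members are uncertain.

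Rdh16f2 moved most in this group. Its log2 ratio ranged from -0.50 to -0.06 at 9 weeks (median -0.38), against -2.33 to -0.79 at 6 weeks (median -1.80), without overlap. The difference was 1.29 ± 0.24 (SE; adjusted p = 0.0447, limma), and the gene was below 0 on all 12 arrays. Rdh9 was the 1 called gene with an effect at 9 weeks and none called at 6 weeks. It ranged from 0.40 to 1.36 at 9 weeks (median 0.78), against -0.38 to 0.35 at 6 weeks (median -0.07), and the difference was 0.84 ± 0.15 (adjusted p = 0.0375, limma). Its mean of 0.90 at 20 weeks was close to the 0.79 of 9 weeks, and that of 3 weeks was 0.02. Rdh19 ranged from -0.33 to 0.73 at 9 weeks (median 0.24), against -0.84 to -0.24 at 6 weeks (median -0.48), and the 2 ranges overlapped at their ends. Its difference was 0.74 ± 0.14 (adjusted p = 0.0481, limma).

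Rdh16 lay between the called members on the chromosome and was not called. It averaged 0.16 ± 0.30 at 9 weeks and -0.46 ± 0.20 at 6 weeks (SD), a difference of 0.62 ± 0.15 (SE; adjusted p = 0.16). Further along, Rdh7 averaged -0.43 ± 0.32 at 9 weeks and -0.50 ± 0.29 at 6 weeks, a difference of 0.07 (95% interval -0.16 to 0.29), and Sdr9c7 averaged -1.39 ± 0.70 at 9 weeks and -0.98 ± 0.21 at 6 weeks, a difference of -0.41 (95% interval -0.91 to 0.09). The difference was above 0 for the 5 measured Rdh genes and below 0 for Sdr9c7, and the intervals of Rdh7 and Sdr9c7 spanned 0. Of all items, 49.6% had a difference above 0, and these neighbours were looked up because of the calls, so the signs are a description. The calls of Rdh9, Rdh19 and Rdh16f2 held in 4, 3 and 2 of the 12 fits with 1 array left out, while their differences stayed between 0.62 and 1.78 in every alternative.

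C6, on chromosome 15, encodes a component of the membrane attack complex of complement. Its log2 ratio ranged from -0.17 to 0.73 at 9 weeks (median 0.44), against 0.68 to 2.30 at 6 weeks (median 1.93). The lowest array of 6 weeks fell inside the range of 9 weeks. The difference was -1.35 ± 0.22 (SE; adjusted p = 0.0283, limma), and C6 had passed as higher in the knockout at 6 weeks with a mean of 1.67 ± 0.62 (SD). Its means at 3 and 20 weeks were 0.08 and 0.56, so the mean of 6 weeks was the highest of the 4. C6 was called in 7 of the 12 fits with 1 array left out.

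Tom1 and Creb3l2 had the same course as C6 at smaller size. Tom1 encodes an endosomal adaptor that binds ubiquitinated cargo. It ranged from -0.44 to 0.32 at 9 weeks (median 0.02), against 0.48 to 0.87 at 6 weeks (median 0.59), a difference of -0.61 ± 0.10 (adjusted p = 0.0283, limma). Creb3l2 encodes a transcription factor held in the endoplasmic reticulum membrane until it is cleaved. It ranged from -0.23 to 0.42 at 9 weeks (median 0.18), against 0.44 to 1.11 at 6 weeks (median 0.68), a difference of -0.57 ± 0.10 (adjusted p = 0.0283, limma). In both genes the weeks did not overlap, all 6 arrays of 6 weeks lay above 0, and the call held in 7 of the 12 fits with 1 array left out.

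Olfr577 and Lrguk were lower in the knockout at both weeks and more so at 9 weeks, as Elovl3 was. Olfr577 encodes an olfactory receptor. Its log2 ratio ranged from -1.39 to -0.80 at 9 weeks (median -0.95), against -0.66 to -0.10 at 6 weeks (median -0.36), without overlap, and the difference was -0.63 ± 0.11 (adjusted p = 0.031, limma). Lrguk encodes a protein with leucine-rich repeats and a guanylate kinase domain that is known for its role in sperm formation. It ranged from -2.22 to -0.88 at 9 weeks (median -1.50), against -0.90 to -0.22 at 6 weeks (median -0.74), with an overlap of the nearest arrays, and the difference was -0.87 ± 0.17 (adjusted p = 0.0447, limma). At 20 weeks the means of -0.54 for Olfr577 and -0.90 for Lrguk stood between those of the 2 earlier weeks, as did the -1.56 of Elovl3.

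Fam13a, Tspan1 and Ncaph2 were negative at 6 weeks and nearer 0 at 9 weeks. Fam13a averaged 0.16 ± 0.40 at 9 weeks and -0.83 ± 0.36 at 6 weeks (SD), a difference of 1.00 ± 0.19 (SE; adjusted p = 0.0447, limma). Tspan1, a tetraspanin of epithelial membranes, averaged -0.18 ± 0.23 at 9 weeks and -0.78 ± 0.34 at 6 weeks, a difference of 0.60 ± 0.11 (adjusted p = 0.0447). Ncaph2, a subunit of the condensin II complex that compacts chromosomes, averaged -0.02 ± 0.11 at 9 weeks and -0.49 ± 0.14 at 6 weeks, a difference of 0.47 ± 0.09 (adjusted p = 0.0447). Ncaph2 arrays of the 2 weeks did not overlap, and those of Fam13a and Tspan1 did. Each of the 3 was called in 3 of the 12 fits with 1 array left out, Lrguk in 4 and Olfr577 in 6. Lrguk, Rdh19, Fam13a and Tspan1 are named because they were called, outside the rule for naming genes.

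Reck was called with opposite effects at the 2 weeks, as was a gene with a clone name that averaged -0.20 ± 0.07 at 9 weeks and 0.17 ± 0.16 at 6 weeks. Reck encodes a membrane-anchored inhibitor of matrix metalloproteinases. Its log2 ratio ranged from 0.01 to 0.29 at 9 weeks (median 0.12), against -0.38 to -0.06 at 6 weeks (median -0.15), so all arrays of 9 weeks were above 0 and all arrays of 6 weeks below. The difference was small, 0.33 ± 0.06 (adjusted p = 0.0481, limma), and was called in 3 of the 12 fits with 1 array left out and in 1 of 13 other alternatives. A pair of further genes passed against 0 with opposite signs without a call on the difference. Vldlr, the very low density lipoprotein receptor, averaged 0.40 ± 0.37 at 9 weeks and -0.33 ± 0.32 at 6 weeks, a difference of 0.72 ± 0.15 (adjusted p = 0.063). That of Vldlr passed without replicate 4 of 9 weeks and without replicate 1 or 2 of 6 weeks (limma, adjusted p from 0.0211 to 0.0388). Without replicate 2 of 9 weeks the Vldlr difference was 0.60 and did not pass (limma, adjusted p = 0.14). Sulf2, which trims sulfate groups from heparan sulfate, averaged 0.19 ± 0.08 at 9 weeks and -0.16 ± 0.09 at 6 weeks, a difference of 0.35 ± 0.08 (adjusted p = 0.0972).

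**Figure D2:**
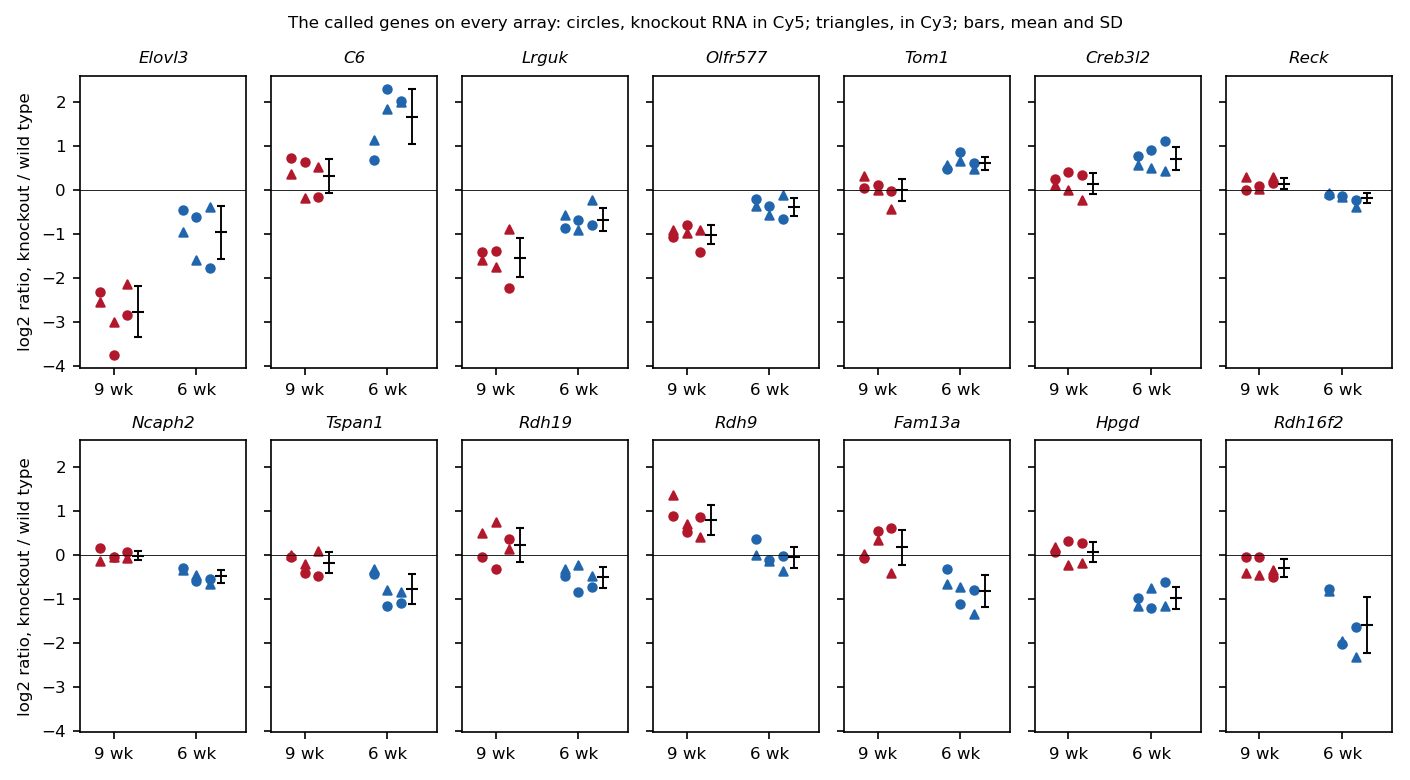
Log2 ratio of knockout over wild type on every array for the 14 called genes that carry a gene name, 9 weeks (red) left of 6 weeks (blue), with the mean and SD of the 6 arrays beside them. Hpgd, Elovl3, Rdh9, Rdh16f2 and Reck show no overlap between weeks (circles, knockout RNA in Cy5; triangles, in Cy3). Circles lie above triangles for Creb3l2 in both weeks, with differences of -0.59 and -0.55 in the Cy5 and Cy3 orientations.

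**Figure D3:**
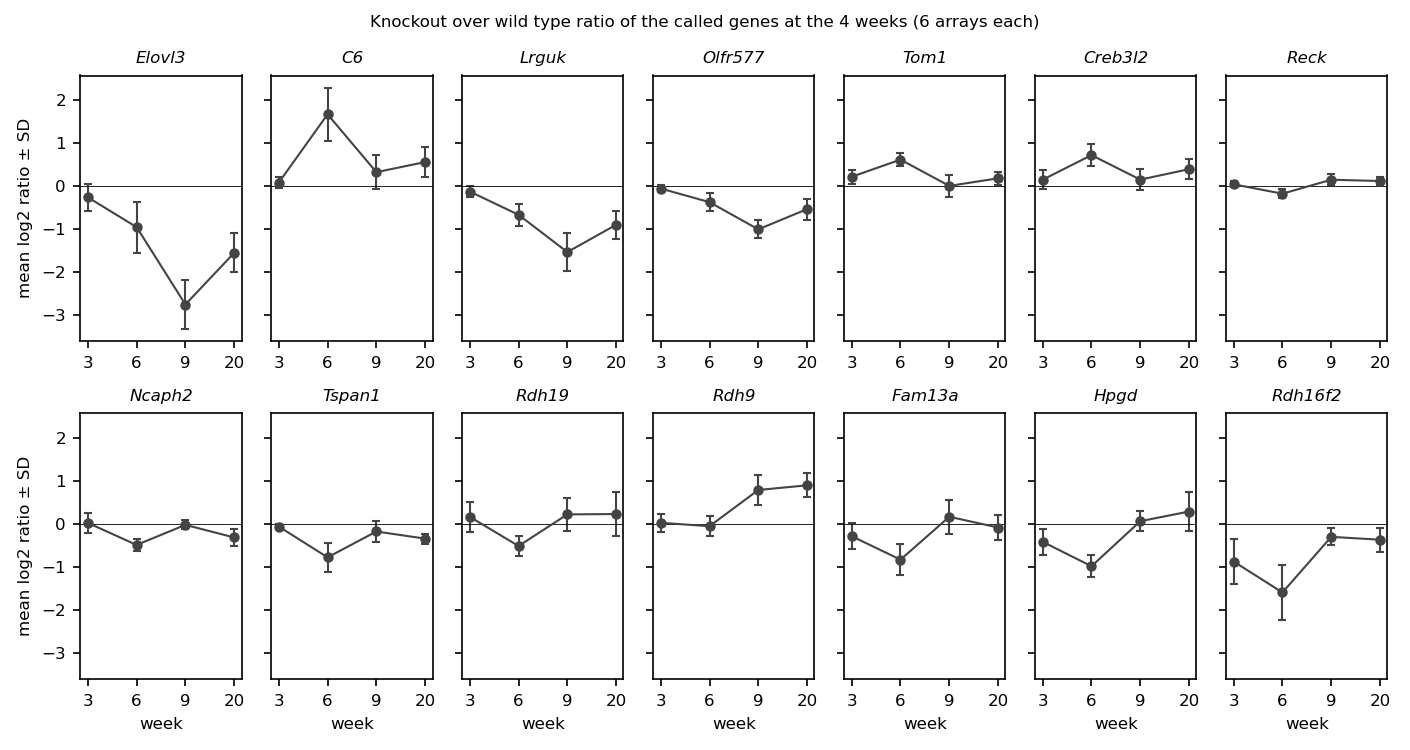
Mean log2 ratio and SD of the same 14 genes at 3, 6, 9 and 20 weeks (6 arrays each; weeks are evenly spaced on the axis, not to scale). C6, Tom1 and Creb3l2 peak at 6 weeks, Hpgd, Rdh16f2, Fam13a and Tspan1 have their lowest mean at 6 weeks, Elovl3, Lrguk and Olfr577 have theirs at 9 weeks, and Rdh9 stays at 0.79 and 0.90 at 9 and 20 weeks.

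Gene lists of liver functions and cell types, 46 in all with 1272 different measured genes, held 2 of the called genes, Elovl3 and C6, and 43 lists held no call. Of all items, 0.0767% were called, 0.0383% in each direction. The lists were written with earlier results of these data known, and each is described by its counts and its median, beside a median difference of 0.00 over all items. Against 0, 10.4% of all items rose and 10.9% fell at 9 weeks, and 10.8% rose and 10.1% fell at 6 weeks.

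The male-biased list stood furthest below that median. It holds genes that are more abundant in male than in female mouse liver under pulsatile growth hormone. Of 35 genes 22 were measured. Elovl3 and C6 fell at 9 weeks relative to 6 weeks (0.0383% of all items were called lower), 20 were not called, and the median difference was -0.49. At an unadjusted p of 0.05, 9 were lower (background 4.19% of items) and 0 were higher (background 3.51%). Array by array, the median of the list lay between -0.90 and -0.13 at 9 weeks, against -0.33 to 0.15 at 6 weeks, so the weeks overlapped. Against 0, 10 members fell in the knockout at 9 weeks and 3 at 6 weeks, where 10.9% and 10.1% of all items fell.

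Hsd3b5, a steroid dehydrogenase of male liver, had the lowest ratios of the list. It ranged from -4.88 to -3.13 at 9 weeks (median -3.70), against -3.45 to -0.90 at 6 weeks (median -1.79), and the difference of -1.73 ± 0.37 missed the threshold (adjusted p = 0.0771, limma). Without replicate 2 of 9 weeks the difference was -1.55 (limma, adjusted p = 0.18). The difference passed without replicate 1 or without replicate 2 of 6 weeks (limma, adjusted p = 0.0386 and 0.00832). These 2 arrays held -3.44 and -3.45, against -1.93 to -0.90 on the other 4 of 6 weeks, and without both the difference was -2.41. For Cyp7b1 they held -2.40 and -2.76, against -1.36 to 0.40, and without both its difference was -2.40. The median of the male-biased list was -0.71 without both. This pair was chosen after the values were seen, so the differences without both arrays support nothing. The mean of Hsd3b5 was -0.20 at 3 weeks and -2.57 at 20 weeks. Cyp7b1, the hydroxylase of the acidic bile acid pathway, ranged from -4.25 to -1.55 at 9 weeks (median -2.91), against -2.76 to 0.40 at 6 weeks (median -1.17). These ranges overlapped widely, and the difference of -1.70 ± 0.44 was not called (adjusted p = 0.20). Selenbp2, a selenium-binding protein, averaged -0.57 ± 0.60 at 9 weeks and 0.55 ± 0.55 at 6 weeks (difference -1.11, adjusted p = 0.16). Moxd1, a monooxygenase related to dopamine hydroxylase, averaged -0.85 ± 0.68 at 9 weeks and -0.02 ± 0.13 at 6 weeks (difference -0.83, adjusted p = 0.31), and Gstp1, a glutathione transferase, 0.05 ± 0.66 at 9 weeks and 1.12 ± 0.76 at 6 weeks (difference -1.07, adjusted p = 0.35). Hsd3b5 and Cyp7b1 belong to gene families, and whether their probes bind transcripts of relatives was not tested.

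The female-biased list, genes more abundant in female liver, had a median difference of 0.20 over 34 of 43 genes measured. No member was called; 13 were higher and 1 lower at an unadjusted p of 0.05 (3.51% and 4.19% of all items). Against 0, 8 members rose and 3 fell in the knockout at 9 weeks, compared with 5 that rose and 11 that fell at 6 weeks; of all items, 10.4% and 10.9% did at 9 weeks, and 10.8% and 10.1% at 6 weeks. Cyp2b9, a steroid and drug hydroxylase, averaged 0.06 ± 0.21 at 9 weeks and -0.95 ± 0.78 at 6 weeks (difference 1.01, adjusted p = 0.26). Its relative Cyp2a4 averaged 0.33 ± 0.58 at 9 weeks and -0.78 ± 0.85 at 6 weeks (difference 1.11, adjusted p = 0.49). Replicates 1 and 2 of 6 weeks held -2.09 and -1.61 for Cyp2a4, against -0.46 to -0.03 on the other 4, and without both the difference was 0.58 (adjusted p = 0.84, limma).

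Fatty acid oxidation genes, many of them targets of the nuclear receptor PPAR alpha, had no call. Of 44 genes 37 were measured, 32 had a difference above 0 (49.6% of all items did), the median difference was 0.18, and 11 were higher and 0 lower at an unadjusted p of 0.05 (3.51% and 4.19% of all items). In the knockout, 3 rose and 13 fell at 9 weeks, and 2 rose and 21 fell at 6 weeks (10.9% and 10.1% of all items fell). The median of the list on single arrays lay between -0.37 and -0.03 at 9 weeks and between -0.51 and -0.24 at 6 weeks.

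The largest positive differences of that list were those of the omega-hydroxylases Cyp4a14, which is also on the female-biased list, and Cyp4a31. Cyp4a14 ranged from -0.84 to 0.29 at 9 weeks (median -0.41), against -3.49 to -1.52 at 6 weeks (median -2.50). The weeks did not overlap, and the difference of 2.27 ± 0.62 was not called (adjusted p = 0.23, limma). The SE rests on all weeks, and the SD of Cyp4a14 was 2.11 at 3 weeks, against 0.40 at 9 and 0.71 at 6 weeks. With the 12 arrays of the 2 weeks alone the difference passed. Cyp4a31 ranged from -2.14 to -0.95 at 9 weeks (median -1.52), against -4.34 to -2.24 at 6 weeks (median -3.78), again without overlap and without a call (difference 2.00 ± 0.49, adjusted p = 0.15). Its SD was 1.35 at 3 weeks, against 0.50 at 9 weeks and 0.79 at 6 weeks. The 2 genes are close relatives whose probes may bind each other's transcripts. Acot1, a thioesterase of acyl-CoA, averaged -0.99 ± 0.42 at 9 weeks and -1.77 ± 0.39 at 6 weeks (difference 0.77, adjusted p = 0.13). Ehhadh, the bifunctional enzyme of peroxisomal oxidation, averaged -0.30 ± 0.60 at 9 weeks and -1.11 ± 0.33 at 6 weeks (difference 0.81, adjusted p = 0.20). Crat, the carnitine acetyltransferase, averaged -0.02 ± 0.31 at 9 weeks and -0.66 ± 0.26 at 6 weeks (difference 0.65, adjusted p = 0.23), and the receptor gene Ppara -0.15 ± 0.29 at 9 weeks and -0.55 ± 0.20 at 6 weeks (difference 0.40, adjusted p = 0.39).

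**Figure D4:**
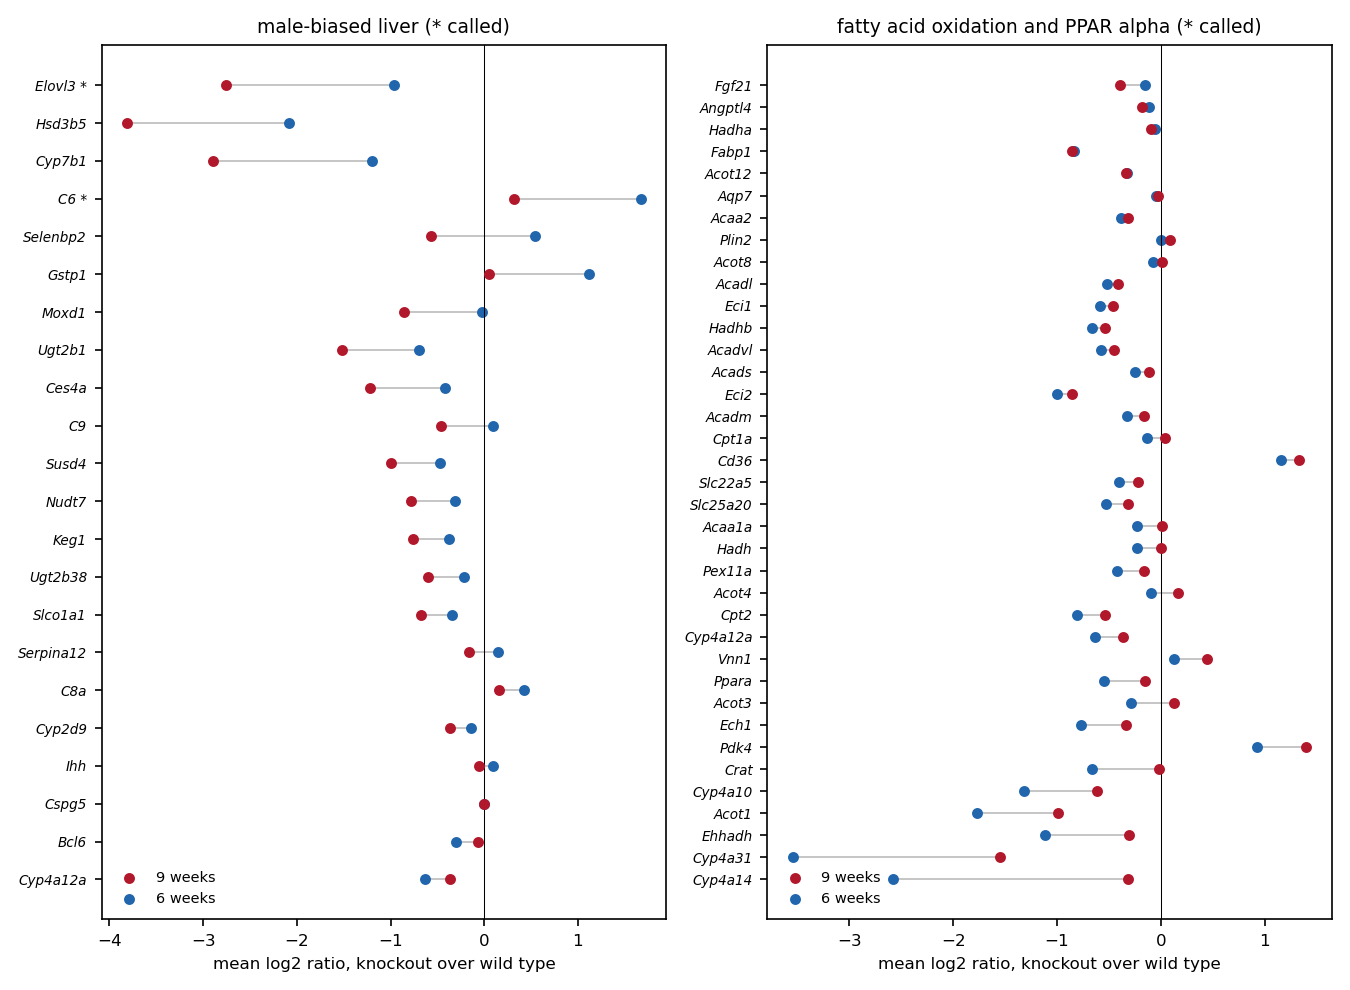
Mean log2 ratio of knockout over wild type at 9 weeks (red) and 6 weeks (blue) for the measured members of the male-biased list (left, 22 genes) and the fatty acid oxidation list (right, 37 genes), sorted by difference. Red lies left of blue for 19 of 22 genes on the left and right of blue for 32 of 37 on the right; asterisks mark Elovl3 and C6, the called members.

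Fatty acid synthesis genes included the called Elovl3 (0.0383% of all items were called lower) and had a median difference of 0.17 over 25 of 26 genes. Pnpla3, a lipase and transacylase of lipid droplets, averaged 0.08 ± 0.18 at 9 weeks and -0.56 ± 0.71 at 6 weeks, and Srebf1, the transcription factor that drives lipogenesis, 0.04 ± 0.39 at 9 weeks and -0.40 ± 0.60 at 6 weeks. Neither was called (adjusted p = 0.50 and 0.83). Among lipoprotein genes, Pltp, the phospholipid transfer protein, averaged 0.43 ± 0.28 at 9 weeks and -0.14 ± 0.23 at 6 weeks with arrays that did not overlap, and its difference of 0.56 ± 0.13 was not called (adjusted p = 0.11).

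Phase I enzymes had 54 of 65 genes measured, no call and a median difference of 0.18, with 13 higher and 2 lower at an unadjusted p of 0.05 (3.51% and 4.19% of all items). Cyp3a11, the main inducible drug hydroxylase of mouse liver, ranged from 1.16 to 2.81 at 9 weeks (median 1.43), against 0.05 to 1.09 at 6 weeks (median 0.62). The weeks did not overlap, and the difference of 1.15 ± 0.36 was not called (adjusted p = 0.33); its mean was 1.70 at 3 weeks and 1.78 at 20 weeks. Cyp26a1, which degrades retinoic acid, averaged -0.13 ± 0.68 at 9 weeks and -1.06 ± 0.45 at 6 weeks (difference 0.93, adjusted p = 0.21). Aldh3a2, a fatty aldehyde dehydrogenase, averaged 0.62 ± 0.70 at 9 weeks and -0.27 ± 0.30 at 6 weeks (difference 0.88, adjusted p = 0.23). In the phase II list, 5 genes were higher and 7 lower at an unadjusted p of 0.05 among 43, and the glutathione transferase Gstt2 averaged 0.04 ± 0.27 at 9 weeks and -0.91 ± 0.31 at 6 weeks with no overlap and no call (difference 0.95, adjusted p = 0.16).

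Bile acid genes and hepatobiliary transporters showed no call among 24 measured in each list, with median differences of 0.03 and 0.01. Cyp7a1, the rate-limiting enzyme of bile acid synthesis, ranged from -1.63 to 1.09 at 9 weeks (median 0.43), against 0.38 to 1.69 at 6 weeks (median 0.83), a difference of -0.77 ± 0.34 (adjusted p = 0.60). Klb, the co-receptor through which intestinal fibroblast growth factor represses that enzyme, averaged -0.24 ± 0.19 at 9 weeks and -0.56 ± 0.18 at 6 weeks (difference 0.32, adjusted p = 0.26). The basolateral anion transporter gene Slc22a7 averaged -1.59 ± 0.38 at 9 weeks and -0.73 ± 0.32 at 6 weeks with arrays that did not overlap (difference -0.86, adjusted p = 0.54). Its SD at 3 weeks, 1.21, also enters the error of that difference. In the complement and coagulation list C6 fell relative to 6 weeks (0.0383% of all items were called lower) and 29 of 30 members were not called. C8b and C9, which act beside C6 in the membrane attack complex, had differences of -0.70 and -0.55 with adjusted p-values of 0.59 and 0.89.

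Cell cycle genes had a median difference of -0.10 over 65 of 71 genes, none called. At an unadjusted p of 0.05, 13 were lower and 0 higher (4.19% and 3.51% of all items). In the knockout 24 rose at 9 weeks and 40 at 6 weeks, where 10.4% and 10.8% of all items rose. The 5 members with the smallest p, Gins2, Mcm6, Mcm4, Mcm7 and Mcm5, encode subunits of the replicative helicase. Mcm6 averaged 0.62 ± 0.41 at 9 weeks and 1.56 ± 0.63 at 6 weeks (difference -0.94, adjusted p = 0.20). Mcm4, Mcm5 and Mcm7 had differences of -0.64, -0.71 and -0.58, and the licensing factor Cdt1 one of -0.54, with adjusted p-values from 0.35 to 0.49. Arrays of the 2 weeks overlapped in all 5. Gins2, another helicase subunit, was negative at both weeks, -0.47 ± 0.28 at 9 weeks and -0.13 ± 0.19 at 6 weeks, with a difference of -0.34 (adjusted p = 0.20).

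Several lists for matrix and for cells of the cholangitic liver had a larger share of members that rose in the knockout than all items. Over all items that share was 10.4% at 9 weeks and 10.8% at 6 weeks. These lists include interstitial matrix, basement membrane, macrophages, cholangiocytes, stellate cells, and T and NK lymphocytes. Of 37 fibrillar and interstitial matrix genes, 28 rose and 1 fell at 9 weeks, and 26 rose and 2 fell at 6 weeks, 25 of them in the same direction at both. The median difference was 0.10 and no member was called. Mgp, the matrix Gla protein, averaged 2.29 ± 0.45 at 9 weeks and 1.66 ± 0.39 at 6 weeks (difference 0.63, adjusted p = 0.50), and the proteoglycan gene Lum 1.86 ± 0.61 at 9 weeks and 1.45 ± 0.50 at 6 weeks (difference 0.41, adjusted p = 0.80). Basement membrane genes had a median difference of 0.16, with 13 of 15 that rose at 9 weeks and 8 at 6 weeks; Col15a1 averaged 0.37 ± 0.31 at 9 weeks and 0.06 ± 0.19 at 6 weeks (adjusted p = 0.50). Timp3, an inhibitor of metalloproteinases, averaged 0.82 ± 0.41 at 9 weeks and 0.32 ± 0.24 at 6 weeks (difference 0.49, adjusted p = 0.31).

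Macrophage and Kupffer cell genes rose at both weeks, 20 of 28 at 9 weeks and 20 at 6 weeks, with a median difference of 0.08 and no call. Lyz2, the macrophage lysozyme, averaged 2.45 ± 0.54 at 9 weeks and 1.96 ± 0.33 at 6 weeks (difference 0.49, adjusted p = 0.51), and the complement subunit C1qb 1.00 ± 0.30 at 9 weeks and 0.67 ± 0.23 at 6 weeks (difference 0.34, adjusted p = 0.55). The antigen presentation genes Cd74 and H2-Ab1 had differences of 0.69 and 0.35 (adjusted p = 0.59 and 0.67) in a list of 9 with a median of 0.27. Cholangiocyte and epithelial genes rose for 16 of 24 at 9 weeks and 14 at 6 weeks, with a median difference of 0.04. The keratin Krt19 averaged 0.86 ± 0.25 at 9 weeks and 0.51 ± 0.14 at 6 weeks, Epcam 1.23 ± 0.28 at 9 weeks and 0.84 ± 0.23 at 6 weeks, and the epithelial factor Elf3 1.90 ± 0.69 at 9 weeks and 2.36 ± 0.72 at 6 weeks, and none was called (adjusted p from 0.50 to 0.85). Stellate cell and myofibroblast genes had a median difference of 0.00, with 11 of 24 that rose at 9 weeks and 12 at 6 weeks. Of the neutrophil list 1 of 12 members rose at 9 weeks and 2 at 6 weeks, and of the B and plasma cell list 1 of 13 at both. These counts lay near the shares of all items that rose, 10.4% at 9 weeks and 10.8% at 6 weeks. The T and NK lymphocyte list, with 5 of 22 at both weeks, lay above those shares.

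Replicate 2 of 9 weeks held the highest value for 11 of 12 matrix, macrophage, antigen presentation and biliary genes named here, C1qb being the exception. Over the 73 genes looked at singly, most of them named here, this array held the highest value for 28 and the lowest for 12. Without it the difference was 0.18 for Col15a1, 0.42 for Mgp, 0.19 for Lum, 0.41 for Lyz2, 0.50 for Cd74, 0.26 for Krt19 and -0.70 for Elf3, none called. Its part in these values was not tested further.

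A pair of genes with high ratios at both weeks was not called. Anxa5, a phospholipid-binding annexin, averaged 3.55 ± 0.63 at 9 weeks and 3.28 ± 0.40 at 6 weeks, a difference of 0.28 with a 95% interval of -0.25 to 0.80. Lcn2, the iron-sequestering lipocalin, averaged 3.38 ± 0.83 at 9 weeks and 2.83 ± 0.41 at 6 weeks, a difference of 0.55 with an interval of -0.76 to 1.85. The SD of Lcn2 at 3 weeks, 1.79, enters that interval too.

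Several metabolic and stress genes had wide differences and wide errors. G6pc, the glucose-6-phosphatase that releases glucose from the liver, averaged -1.05 ± 0.85 at 9 weeks and 0.65 ± 0.70 at 6 weeks (difference -1.70 ± 0.48 SE, adjusted p = 0.24). Igfbp1, an insulin-repressed binding protein of growth factors, averaged 0.43 ± 1.33 at 9 weeks and 2.22 ± 0.64 at 6 weeks (difference -1.79 ± 0.80, adjusted p = 0.60). Id1, a target of bone morphogenetic protein signals, averaged 0.64 ± 0.61 at 9 weeks and -0.58 ± 1.35 at 6 weeks (difference 1.22 ± 0.44, adjusted p = 0.46). Dnajb9, a chaperone of the endoplasmic reticulum, averaged -0.01 ± 0.60 at 9 weeks and 0.97 ± 0.32 at 6 weeks with arrays that did not overlap (difference -0.98 ± 0.38, adjusted p = 0.51). The errors also rest on 3 weeks, where the SD was 2.51 for Igfbp1 and 1.10 for Dnajb9, but 0.55 for G6pc and 0.37 for Id1.

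Markers of tissues that a liver piece could carry along moved little. The median difference was 0.02 for 18 exocrine pancreas genes, 0.02 for 10 erythroid genes, 0.03 for 10 adipose genes and -0.01 for 13 muscle genes, with no call in these lists. Array medians of the pancreas list lay between -0.16 and 0.05 at 9 weeks and between -0.22 and -0.01 at 6 weeks. The hepatocyte list, 24 of 31 genes, had a median difference of 0.02, with array medians between -0.45 and 0.02 at 9 weeks and between -0.33 and -0.03 at 6 weeks. The endothelial list had a median of 0.08, with Tek, the angiopoietin receptor, at 0.29 (adjusted p = 0.42). Neutrophil and lymphocyte lists had medians between -0.03 and 0.01.

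**Figure D5:**
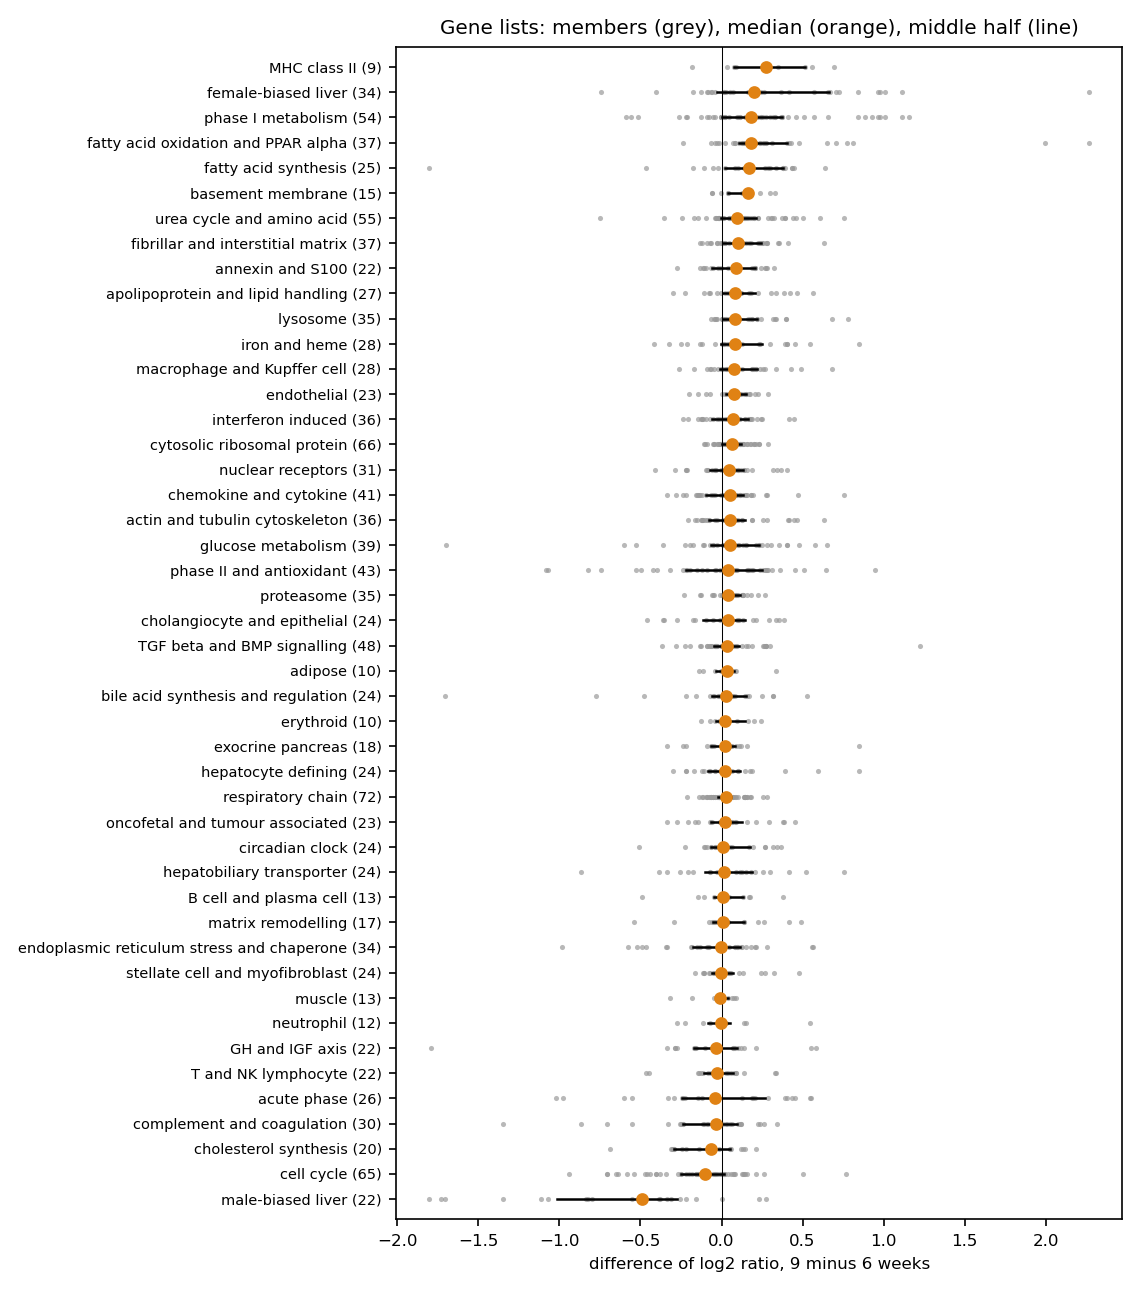
Difference of log2 ratio between 9 and 6 weeks for the members of each of 46 gene lists (grey), with the median (orange) and the interquartile range (line); the number measured is in brackets. The male-biased list has the lowest median (-0.49), the MHC class II list the highest (0.27), and most lists centre near 0.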

How the data were processed

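Two-colour spotted arrays of mouse liver RNA were deposited as 1 table of log ratios per feature and array. Per the labels, total RNA came from Qiagen RNeasy columns and was labelled with Stratagene's FairPlay kit. Background correction, normalization and log base: not given in the sources used here; the authors' deposited values were read as log2 ratios of Cy5 over Cy3. No value was missing, and no intensity was used. Array medians lay between -0.037 and 0.015. Value rows were joined to probes by reading the grid of 215 by 105 by column with both axes reversed, in which copies of 48 accessions had a mean median correlation of 0.6907, against 0.0178 in the direct join.

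The sign was reversed on arrays whose Cy5 channel held wild type RNA, each array was centred on its median, and features were averaged per symbol (16504 genes among 20861 items). A model with 1 mean per week and a common dye term was fitted to all 24 arrays (limma 3.58.1, R 4.3.3, 19 residual degrees of freedom), and the contrast of 9 minus 6 weeks was tested two-sided with Benjamini-Hochberg adjustment at 0.05. The median SE of a difference was 0.085. The fit was tested on simulated data. Members, lists and the rule for named genes were chosen with earlier results of these data known. The rule took Abcb4, up to 20 called genes per direction whose weeks did not overlap, up to 10 called list members per direction whose weeks did, genes with opposite effects at the 2 weeks and up to 8 members per list with the smallest p. Replicate numbers did not pair arrays across weeks: correlations of their deviations ran from -0.38 to 0.29. Promoter windows and gene order are RefSeq's on GRCm38.p6.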

Additional observations from a re-analysis of the deposited data

Results flagged for a closer look

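The knockout effect differed between 9 and 6 weeks, by limma's test of the difference itself, for 15 named genes. Higher at 9 weeks were Rdh16f2 with a difference of 1.29, Hpgd with 1.05, Fam13a with 1.00, Rdh9 with 0.84, Rdh19 with 0.74, Tspan1 with 0.60, Ncaph2 with 0.47 and Reck with 0.33. Lower at 9 weeks were Elovl3 with -1.80, C6 with -1.35, Lrguk with -0.87, Olfr577 with -0.63, Tom1 with -0.61 and Creb3l2 with -0.57, and a gene known by a clone name with -0.37.

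A single array stood apart from the other 5 of its week in 4 of 148 gene and week groups looked at, where chance gives about 1 in 20. All 4 were at 9 weeks. This rule sees single arrays, not the pair of 6 weeks, replicates 1 and 2. That pair lay outside the other 4 together for 30 of the 73 genes looked at singly. Replicate 2 held the lowest Slc22a7 value, -2.36, and the highest Ctss value, 2.40; Ctss encodes a cathepsin of antigen presenting cells. Replicate 4 held the highest Mcm4 and Mcm5 values, 1.07 and 0.93. Without that replicate the differences of Mcm4 and Mcm5 were -0.75 and -0.81, against -0.64 and -0.71 with it, and neither was called.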

How the results depend on the processing

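The count of 16 items was 20 without centring (12 higher), 13 with quantile normalization (6 higher), 12 with array weights and 14 of 22575 features left unaveraged. It was 6 with the 12 arrays of both weeks alone, of which 2 were shared with the 16, 10 without a dye term, 2 with a dye term per week, 1 (higher) with a common spread, 1 with the closest pair of opposite orientation averaged, 1 at an adjusted p of 0.01, 29 of 6963 items with a mean absolute ratio of at least 0.2, and 28 with the replicate number as a block, 14 of them shared; the numbers do not pair mice, and 2 of 6 arrays of 9 weeks correlated best with their own number. With 3 arrays a week, limma called 0 items in either orientation (1510 at an unadjusted p of 0.05 with knockout RNA in Cy5, 1495 in Cy3). Leaving out 1 array gave 2 to 38, and leaving out replicates 1 and 2 of 6 weeks together, chosen after seeing the data, gave 70. The cause of these changes was not tested, beyond fewer arrays or items where the setting removes them.

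Different list members called, 2 here, numbered 1 with a dye term per week, 4 with the replicate block, 4 with the filter, 0 with a common spread, in either orientation, with the closest pair averaged and at 0.01, 1 to 7 with 1 array left out and 11 without both of those arrays. Against 0, 4444 items were called at 9 weeks and 4362 at 6 weeks. At 9 weeks the count was 2389 in the Cy5 orientation, 1615 in the Cy3 orientation and 2744 at 0.01; at 6 weeks it was 1038 in the Cy3 orientation and 2322 at 0.01. Leaving out 1 array gave 3293 to 4464 and 2934 to 4794. No called gene changed sign in the alternatives run. The uncalled Abcb4 difference turned to -0.02 in the Cy5 orientation and -0.05 with array weights, and ranged from -0.02 (without replicate 6 of 9 weeks) to 0.32 with 1 array left out. The male-biased median stayed between -0.71 and -0.35, and the fatty acid oxidation median between 0.10 and 0.27. Signal over background is not known here.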
